A study of Mus musculus with 4 samples.

Results

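The 9 genes described here serve the synthesis, carriage and breakdown of retinoids, the vitamin A compounds. They are Rdh10, Aldh1a1, Aldh1a2, Aldh1a3, Rbp4, Stra6, Crabp1, Crabp2 and Cyp26b1, and were taken by symbol from the 21958 gene rows of the deposited table. All 9 were found, each in 1 row, and all 9 passed the filter on low counts that left 15311 genes for testing. RNA was sequenced from whole mouse ovary in 4 libraries, 2 from the genotype labelled ++Oxtr or tg (OxtrTg here, replicates 3 and 4), in which the oxytocin receptor is overexpressed, and 2 from wild type (WT, replicates 5 and 6). All females were taken in diestrus, the quiet stage of the cycle. The labels do not state age, strain, the promoter of the transgene or how many ovaries went into a library. The tissue label is ovary in every library, while the protocol for RNA extraction speaks of white adipose tissue.

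Retinol circulates bound to RBP4 and enters cells through STRA6. Inside the cell RDH10 oxidises retinol to retinal, and the ALDH1A enzymes oxidise retinal to retinoic acid, which binds nuclear receptors (RARs with RXR partners) and changes transcription. CRABP1 and CRABP2 bind retinoic acid in the cell, and CYP26 enzymes break it down. In the mouse fetal gonad retinoic acid promotes the entry of germ cells into meiosis, and CYP26B1 removes it in the testis; in the adult ovary, follicle and luteal cells also carry enzymes of this pathway.

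The libraries held 15229810 to 16517764 counts over 17135 to 17365 detected genes, and mitochondrial genes held 2.43% to 3.06% of all counts. Oxtr, the gene of the receptor, measured 109 and 161 CPM in OxtrTg (CPM being the count scaled to library size by TMM), while the WT libraries had 29.2 and 55.5 CPM. Its order follows the labels, with a log2 difference of 1.68 ± 0.39 (SE) and an adjusted p of 1 in edgeR and 0.00611 in DESeq2. Markers of granulosa cells (10 genes led by Gja1 and Inha, 4590 to 6391 CPM summed) and of oocytes (12 genes led by Padi6 and Nlrp14, 655 to 1188 CPM) were present in every library. Some libraries stood apart in their cell type markers. WT replicate 6 held 10891 CPM over 12 luteal markers, against 2542 to 2819 CPM in the other 3 libraries. OxtrTg replicate 3 held 98.8 CPM over 13 oviduct epithelium markers, led by Ovgp1 and Dnah5, against 1324 to 3389 CPM in the others. Both OxtrTg libraries held more of 15 adipocyte markers, at 2874 and 2129 CPM against 452 and 554 CPM in WT. No gene of these lists was at 0 in any library. In whole tissue, fewer cells of a type and less RNA per cell cannot be told apart.

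Over all genes the genotypes differed in 0 of 15311 genes, in either direction, by edgeR's quasi-likelihood test at a Benjamini-Hochberg adjusted p of 0.05. This is 0% higher and 0% lower, and 0 of the 9 retinoid genes passed. With no adjustment, edgeR had p under 0.05 for 324 higher genes (2.12%) and for 69 lower genes (0.451%), and of the 9 this held for 1 higher gene, Cyp26b1, and for 0 lower genes. DESeq2 called 66 genes higher (0.431%) and 3 lower (0.0196%), and limma-voom called 0 in each direction (0%); neither called a retinoid gene. For Cyp26b1 and Rbp4 each OxtrTg library exceeded each WT library, which is 2 of 9 genes where 14.5% of all tested genes had that order. The reverse order held for 0 of 9, where it held for 11.7% of all tested genes. The log2 difference was above 0 for 6 of the 9 genes (49.2% of all tested genes) and below 0 for 3 (50.8%), and its median was 0.25, against 0 over all tested genes. An exact permutation test of a single gene could not go below a two-sided p of 0.333 with 2 libraries a group.

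**Figure D1:**
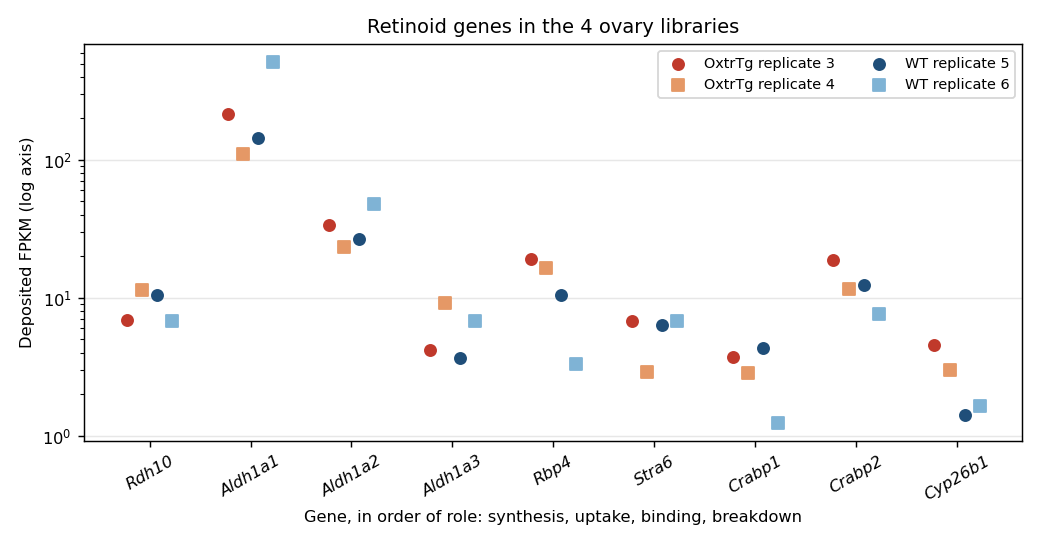
The deposited FPKM of each retinoid gene (log axis) in the 4 ovary libraries, 1 point per library, with red and orange for OxtrTg and blues for WT. Aldh1a1 lies far above the other genes in every library, and only Cyp26b1 and Rbp4 have both OxtrTg points above both WT points.

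Levels per gene length (FPKM, the count over gene length and library total) spanned a wide range. Aldh1a1 had a mean of 245 FPKM over the 4 libraries, at the 99.5th percentile of detected genes. Aldh1a2 followed at 32.9 FPKM, then Crabp2 at 12.6, Rbp4 at 12.4, Rdh10 at 8.87, Aldh1a3 at 5.95, Stra6 at 5.68, Crabp1 at 3.02 and Cyp26b1 at 2.64 FPKM. Neighbours from Crabp2 down overlapped in their range over libraries, while every value of Aldh1a1 lay above every value of Aldh1a2, and every value of Aldh1a2 above every value of the other 7.

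Rdh10 (ENSMUSG00000025921, chromosome 1, 16175998 to 16203958, plus strand) makes retinal from retinol and is the first enzyme of the route. The positions given with each gene come from the deposited table, which names no build. They differ from GRCm38, in which the promoters are given. Rdh10 was at 6.94 and 11.4 FPKM in OxtrTg replicates 3 and 4 and at 10.4 and 6.76 FPKM in WT replicates 5 and 6. Each genotype had 1 high and 1 low library, and the groups overlapped. The log2 difference (OxtrTg minus WT) was 0.12 ± 0.35 (SE), with a 95% interval of -0.82 to 1.06.

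Aldh1a1 (ENSMUSG00000053279, chromosome 19, 20470079 to 20620829, plus strand), which makes retinoic acid from retinal, is the most abundant of the 9 and the one that varied most in absolute terms. It was at 214 and 110.0 FPKM in OxtrTg replicates 3 and 4 and at 145 and 513 FPKM in WT replicates 5 and 6. WT replicate 6 stood far above the other 3 libraries, while WT replicate 5 lay between the OxtrTg libraries. Scaled CPM averaged 799.5 ± 345 over the OxtrTg pair and 1631 ± 1312 over the WT pair (SD, n = 2). In log2 units OxtrTg minus WT came to -1.03 ± 0.71 (SE), and edgeR's unadjusted p was 0.215 and its adjusted p 1. Leaving out WT replicate 6 turned it to 0.18. That library also held the 10891 CPM of luteal markers, of which Hsd3b1 and Cyp11a1 were the most abundant, at 3640 and 3559 CPM there against 1557 to 1794 and 253 to 553 CPM in the others. Of 12 luteal markers, 11 were tested, and 0 of these had a positive difference (49.2% of all tested genes). Only 2 of the 11 were lower in both OxtrTg libraries (11.7% of all tested genes). For most of the 11, WT replicate 5 lay below both OxtrTg libraries, as for Cyp11a1 at 253 CPM against 553 and 411 CPM. Whether these markers bear on the Aldh1a1 level was not tested.

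The bases before the Aldh1a1 start are shown because this gene supplied most of the Aldh1a transcript. RefSeq lists 2 starts, and the one printed is 7 bases from the start of the principal GENCODE transcript (chr19:20601718-20601967, GRCm38.p6, plus strand, the 250 bases before the start).
Aldh1a1: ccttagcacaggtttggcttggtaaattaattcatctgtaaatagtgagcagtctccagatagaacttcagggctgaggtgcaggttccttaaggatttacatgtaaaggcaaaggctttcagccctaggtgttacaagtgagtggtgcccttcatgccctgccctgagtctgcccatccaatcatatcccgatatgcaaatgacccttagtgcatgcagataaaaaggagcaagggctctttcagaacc

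Aldh1a2 (ENSMUSG00000013584, chromosome 9, 71123071 to 71203525, plus strand), the main retinoic acid producer of the mouse embryo, was at 33.6 and 23.5 FPKM in OxtrTg and at 26.8 and 47.9 FPKM in WT. Its libraries had the same order as those of Aldh1a1, from OxtrTg replicate 4 up to WT replicate 6, in a narrower range (2.02-fold in scaled CPM from lowest to highest, against 4.61-fold). The log2 difference was -0.39 ± 0.35 (SE), and without WT replicate 6 it was 0.12. Aldh1a3 (ENSMUSG00000015134, chromosome 7, 66040638 to 66077265, minus strand), the third retinal dehydrogenase, had another order, at 4.15 and 9.20 FPKM in OxtrTg and 3.63 and 6.80 FPKM in WT. Its highest library was OxtrTg replicate 4, the lowest of Aldh1a1 and Aldh1a2, and its log2 difference was 0.37 ± 0.54 (SE).

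Summed over the 3 enzymes, retinal dehydrogenase transcript came to 252 and 143 FPKM in OxtrTg and 175.5 and 567 FPKM in WT. Aldh1a1 made up 85.0% and 77.1% of it in OxtrTg and 82.6% and 90.4% in WT. Aldh1a2 held 13.3% and 16.5% against 15.3% and 8.44%, and Aldh1a3 held 1.65% and 6.45% against 2.07% and 1.20%. The groups overlapped in each of these shares.

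Aldh1a7 is a mouse gene closely related to Aldh1a1, and how the counting treated shared reads is not stated. The longest open reading frames of both genes have 1506 bases and are 91.6% identical, and 10.4% of the 50-base windows of Aldh1a7 occur unchanged in Aldh1a1. Short reads from such windows fit both genes, so some reads may be counted for the wrong gene. How far this alters either count was not tested, and only the reading frames were compared. Aldh1a7 counts came to 1.34% and 2.26% of the Aldh1a1 counts in OxtrTg and to 1.01% and 0.339% in WT. The frames of Aldh1a1, Aldh1a2 and Aldh1a3 were 69.1% to 69.9% identical to each other and shared 0% of such windows. The same share was found for Crabp1 and Crabp2, which were 70.8% identical, and for Cyp26a1 and Cyp26b1, at 62.2%.

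Rbp4 (ENSMUSG00000024990, chromosome 19, 38105077 to 38113729, minus strand), the carrier of retinol in blood and a product of liver and fat cells, was at 19.2 and 16.5 FPKM in OxtrTg replicates 3 and 4 and at 10.4 and 3.28 FPKM in WT replicates 5 and 6. The groups did not overlap, though the WT libraries were 3.08-fold apart in scaled CPM. OxtrTg averaged 24.1 ± 1.94 CPM and WT 9.10 ± 6.56 CPM (SD, n = 2), a ratio of 2.65. On the log2 scale this was 1.4 ± 0.58 (SE), with a 95% interval of -0.17 to 2.97, and edgeR's unadjusted p was 0.0687 and its adjusted p 1. The unadjusted p was 0.0205 in DESeq2 and 0.0278 in limma-voom, and the adjusted p was 1 in both. Without WT replicate 6 the difference was 0.81, and without WT replicate 5 it was 2.43. In this last comparison DESeq2 called the gene (adjusted p = 0.00166), and it also called Aldh1a1 lower (log2 difference -1.69, adjusted p = 0.00331). Both calls rest on WT replicate 6 as the lone WT library.

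Stra6 (ENSMUSG00000032327, chromosome 9, 57971071 to 58061279, plus strand), the cell surface receptor of RBP4, was at 6.76 and 2.91 FPKM in OxtrTg and 6.35 and 6.72 FPKM in WT. OxtrTg replicate 4 alone was low, and the other 3 libraries lay close together. The log2 difference was -0.43 ± 0.41 (SE), and without OxtrTg replicate 4 it was 0.03. In the deposited table the Stra6 row overlaps the row of Ccdc33 on the other strand. Whether the counting used strand is not stated, so reads of these genes cannot be told apart with certainty. The other 8 genes overlap no row of the table.

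Crabp2 (ENSMUSG00000004885, chromosome 3, 87855973 to 87860683, plus strand), which hands retinoic acid to its receptors, was at 18.8 and 11.6 FPKM in OxtrTg and 12.4 and 7.61 FPKM in WT. Crabp1 (ENSMUSG00000032291, chromosome 9, 54672032 to 54680394, plus strand), its relative, was at 3.68 and 2.85 FPKM in OxtrTg and 4.30 and 1.24 FPKM in WT. Both genes were lowest in WT replicate 6, and for both the groups overlapped. The log2 differences were 0.61 ± 0.37 (SE) for Crabp2 and 0.25 ± 0.70 for Crabp1. Crabp1 is the most weakly counted of the 9, with 45 and 35 counts in OxtrTg and 57 and 16 in WT. Counting error alone gives the 16 counts an exact 95% Poisson interval of 9.14 to 26.0, which lies below that of the 57 counts in the other WT library (43.2 to 73.8). Crabp2 exceeded Crabp1 in every library, 2.87-fold to 6.14-fold in FPKM.

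Cyp26b1 (ENSMUSG00000063415, chromosome 6, 84548396 to 84570890, minus strand), which oxidises retinoic acid to products that are cleared, was the only one of the 9 with an unadjusted p under 0.05 in edgeR. It was at 4.53 and 2.96 FPKM in OxtrTg replicates 3 and 4 and at 1.41 and 1.64 FPKM in WT replicates 5 and 6. The groups did not overlap, and the ratio of group means exceeded the larger ratio within a group (2.46 against 1.47). It was the 1 gene of the 9 for which this held; over all tested genes the larger ratio within a group exceeded that of the means in 84.6%, and among the 9 in 8. OxtrTg averaged 20.1 ± 5.42 CPM and WT 8.14 ± 1.0 CPM (SD, n = 2). On the log2 scale this was 1.3 ± 0.3 (SE), with a 95% interval of 0.49 to 2.11, and edgeR's unadjusted p was 0.0106 and its adjusted p 1. The unadjusted p was 0.000942 in DESeq2 and 0.0136 in limma-voom, with adjusted p of 0.149 and 1. As the groups did not overlap, leaving out 1 library could not turn the direction. With each library left out in turn, edgeR gave log2 differences from 0.99 to 1.55.

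Adipocyte markers had the same order of groups as Cyp26b1 and Rbp4. Of 15 listed, 14 had a positive difference (49.2% of all tested genes), and 13 were higher in both OxtrTg libraries (14.5% of all tested genes). The median log2 difference of the list was 3.09. The most abundant, Car3 and Lpl, were at 898 and 631 CPM and at 502 and 411 CPM in OxtrTg, against 82.9 and 58.8 and 125 and 137 CPM in WT. Endothelial markers led by Pecam1 and Eng (8 of 8 higher in both OxtrTg libraries, 697 to 721 CPM summed against 539 to 557) and markers of fibroblasts and stroma led by Col3a1 and Col1a2 (7 of 9, 9573 to 11765 against 6212 to 7974 CPM) were ordered alike. Red cell markers led by Hbb-bs and Bpgm, with 4 of 6 higher in both OxtrTg libraries, summed to 337 and 187 CPM in OxtrTg and to 165 and 97 CPM in WT. Bpgm itself overlapped, at 87.8 and 51.9 CPM in OxtrTg against 84.6 and 68.4 CPM in WT. The part of these cell types in the Cyp26b1 and Rbp4 values was not tested, and it cannot be told apart from genotype in 4 libraries.

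The bases before the starts of Cyp26b1 and Rbp4 are shown because these genes alone had groups that did not overlap. Capitals mark the letters TATAAA, which were searched on both strands. Cyp26b1 has 1 RefSeq start (chr6:84593811-84594060, GRCm38.p6, minus strand), which is 64 bases from the principal GENCODE start. Of the 2 starts of Rbp4 the one nearer to the principal GENCODE start, at 17 bases, is printed (chr19:38124812-38125061, GRCm38.p6, minus strand).
Cyp26b1: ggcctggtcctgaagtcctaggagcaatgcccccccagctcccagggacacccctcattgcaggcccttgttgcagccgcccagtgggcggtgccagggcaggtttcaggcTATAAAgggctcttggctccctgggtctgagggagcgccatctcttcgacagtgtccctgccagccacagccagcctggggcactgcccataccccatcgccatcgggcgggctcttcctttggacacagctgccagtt
Rbp4: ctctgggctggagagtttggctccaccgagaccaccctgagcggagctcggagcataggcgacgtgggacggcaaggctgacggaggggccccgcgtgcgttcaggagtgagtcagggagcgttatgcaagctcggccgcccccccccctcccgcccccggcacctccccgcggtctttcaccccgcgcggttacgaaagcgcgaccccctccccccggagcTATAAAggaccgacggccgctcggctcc

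The letters TATAAA begin at -28 in Rbp4 and at -139 in Cyp26b1, counted from the RefSeq start, with -1 the last base before it, and 12.4% of 32851 mouse windows of 250 bases hold them on either strand. The Aldh1a1 window printed above holds none. Half-sites bound by retinoic acid receptors were searched as AGGTCA (in 14.0% of windows) and AGTTCA (in 11.8%), and paired sites as repeats of AGGTCA in 1 direction with 5, 2 or 1 bases of any kind between them (in 0.00913%, 0.00913% and 0.0335%), on both strands. A paired site also counts under AGGTCA. None of these letters occurred in the 250-base windows of the 6 matched genes (Aldh1a1, Aldh1a2, Rbp4, Stra6, Crabp1 and Cyp26b1). That says only that these letters are not in these windows. No window was matched for Rdh10, Aldh1a3 and Crabp2.

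**Figure D2:**
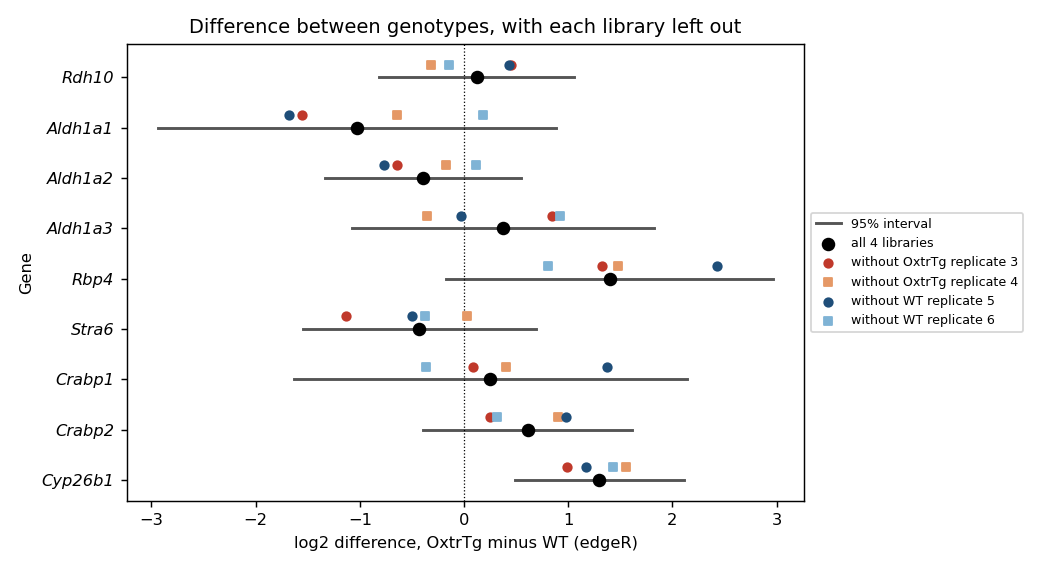
The edgeR log2 difference of each retinoid gene (OxtrTg minus WT) over all 4 libraries in black, with its 95% interval as a line, and in colour the difference with each library left out. Cyp26b1 alone has an interval above 0, and only Rbp4, Crabp2 and Cyp26b1 stay on 1 side of 0 in every fit. For Rbp4 and Cyp26b1 this follows from groups that do not overlap.

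The rest of the pathway was followed in 46 further genes in 6 groups by role, of which 35 passed the filter. In edgeR 0 passed in either direction, 3 had an unadjusted p under 0.05 with a positive difference (2.12% of all tested genes) and 0 with a negative one (0.451%), and 11 were higher (14.5%) and 1 lower (11.7%) in both OxtrTg libraries. Rxrg, counted in the 3 and in the 11, passed the filter on low counts through its OxtrTg libraries alone and so had to differ. The median log2 difference of the 35 genes was 0.18, against 0 over all tested genes. DESeq2 called 1 higher (0.431% of all tested genes) and 0 lower (0.0196%). The 1 was Rbp7, a cellular retinol-binding protein known from fat tissue and its vessels. Rbp7 measured 11.3 and 6.95 CPM in OxtrTg against 2.14 and 1.51 CPM in WT, with a log2 difference of 2.31 ± 0.44 (SE) and an adjusted p of 0.0205 in DESeq2 and 1 in edgeR. The DESeq2 call held without OxtrTg replicate 4 (adjusted p = 0.0412) and was lost without OxtrTg replicate 3 (1), WT replicate 5 (0.267) or WT replicate 6 (1). Its groups are ordered as the adipocyte markers are, and their part in it was not tested.

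Fabp5, a fatty acid carrier that also binds retinoic acid, was at 68.8 and 67.1 CPM in OxtrTg against 55.3 and 74.0 CPM in WT. The groups overlapped, with a log2 difference of 0.07 ± 0.17 (SE). Ttr, whose product binds RBP4 in blood and which is named here after its values were seen, had 0 counts in all 4 libraries, a limit of 0.178 to 0.2004 CPM at 3 counts.

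Of 16 further genes that convert retinol and retinal, 11 were tested, and 8 had a positive and 3 a negative difference. Adh1, an alcohol dehydrogenase that can oxidise retinol, was the most abundant at 103 and 158 CPM in OxtrTg and 48.0 and 169 CPM in WT. Dhrs3, which returns retinal to retinol, was at 131 and 94.9 against 62.5 and 103 CPM, a log2 difference of 0.45 ± 0.30 (SE). For both genes the lowest library was WT replicate 5, and the groups overlapped. Aldh1a7 was at 13.9 and 12.6 against 7.08 and 8.66 CPM, with a log2 difference of 0.75 ± 0.26 (SE) and an unadjusted p of 0.0428, subject to the shared reads above. Bco1 and Bco2, which cleave carotenes, were thinly counted, with 6 to 18 and 8 to 49 counts per library, and Aldh8a1 had 0 to 5 counts.

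The breakdown enzymes as a family gave a picture that Cyp26b1 alone does not. Cyp26a1 had 16 and 570 counts in OxtrTg replicates 3 and 4 and 337 and 15 in WT replicates 5 and 6, or 1.04 and 38.1 against 20.0 and 0.942 CPM. Each genotype thus had 1 library with high and 1 with low Cyp26a1, and the log2 difference was 0.90 ± 1.94 (SE). Cyp26c1 was counted in the same libraries, with 0 and 15 counts in OxtrTg and 12 and 0 in WT. Summed over the 3 enzymes the level was 5.06 and 22.3 FPKM in OxtrTg and 12.1 and 2.11 FPKM in WT. Cyp26b1 made up 89.5% and 13.3% of this sum in OxtrTg and 11.7% and 77.7% in WT.

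The summed Aldh1a level divided by the summed Cyp26 level, a ratio of transcripts and not of enzyme activity, was 49.8 and 6.40 in OxtrTg and 14.5 and 269 in WT. The lowest ratio was in OxtrTg replicate 4 and the highest in WT replicate 6, and the groups overlapped. Oviduct epithelium markers summed to 3389 and 2816 CPM in the libraries with high Cyp26a1, and to 98.8 and 1324 CPM in those with low Cyp26a1. The lower sum in WT replicate 6 came largely from Ovgp1, at 582 CPM there against 2576 and 1974 CPM in the libraries with high Cyp26a1. Most of the other listed markers were not low in WT replicate 6, and so did not follow Cyp26a1 in that library. Among them, Dnah5 was at 141 CPM there against 163 and 148 CPM in the libraries with high Cyp26a1. In OxtrTg replicate 3 Ovgp1 and Dnah5 were at 15.9 and 0.777 CPM. Adh7, which also oxidises retinol, was highest in the libraries with high Cyp26a1, at 1.23 and 67.1 CPM in OxtrTg and 26.1 and 7.85 CPM in WT. The homeobox gene Hoxa5, on the list of retinoic acid responsive genes, stood at 14.2 and 40.1 against 35.9 and 11.4 CPM. Both genes are named here after their values were seen. The part of oviduct tissue in these values was not tested.

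**Figure D3:**
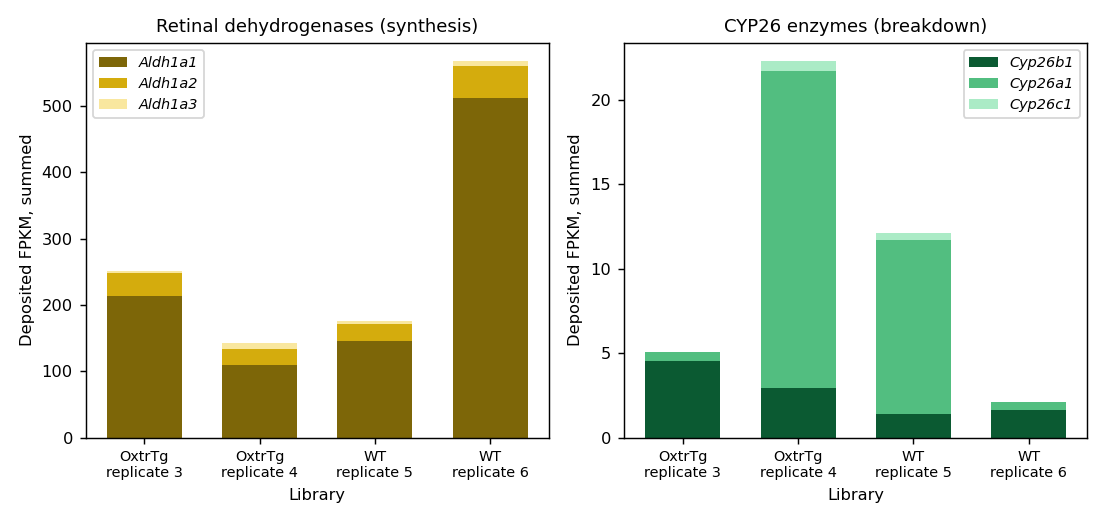
Deposited FPKM of the retinal dehydrogenases (left) and CYP26 enzymes (right), stacked by gene, 1 bar per library; the axes differ in scale. The tallest synthesis bar is WT replicate 6, and the tallest breakdown bar is OxtrTg replicate 4, where Cyp26a1 makes up most of the sum.

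All 6 retinoic acid and retinoid X receptors passed the filter, and 5 had a positive difference. The 5 include Rxrg, whose difference was fixed by the filter, as given below. Rara was at 38.9 and 47.0 CPM in OxtrTg against 44.8 and 44.0 CPM in WT, Rxra at 108 and 88.6 against 89.9 and 84.0 CPM, and Rxrb at 80.7 and 67.4 against 72.2 and 70.8 CPM. Rarg was at 67.8 and 62.5 against 55.7 and 55.5 CPM, a log2 difference of 0.23 ± 0.10 (SE). Rarb, whose gene is itself induced by retinoic acid, was low, at 2.46 and 1.94 against 1.67 and 1.63 CPM. Rxrg had 35 and 25 counts in OxtrTg and 5 and 0 in WT; it passed the filter through the OxtrTg libraries alone and so had to differ, and no test of it is given. The groups did not overlap for Rarb and Rarg, where 14.5% of all tested genes had this order.

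Of 11 genes known to respond to retinoic acid, 7 were tested, and 3 had a positive and 4 a negative difference, with a median of -0.07. Tgm2 (transglutaminase 2) was at 190 and 233 CPM in OxtrTg against 176 and 164 CPM in WT, and Rarres2, the gene of the adipokine chemerin, at 98.5 and 83.5 against 80.7 and 64.9 CPM. Their log2 differences were 0.31 ± 0.14 and 0.32 ± 0.16 (SE). Stra8, through which retinoic acid acts on germ cells at meiotic entry, is named here after its values were seen and had 4 and 0 counts in OxtrTg and 0 and 1 in WT.

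**Figure D4:**
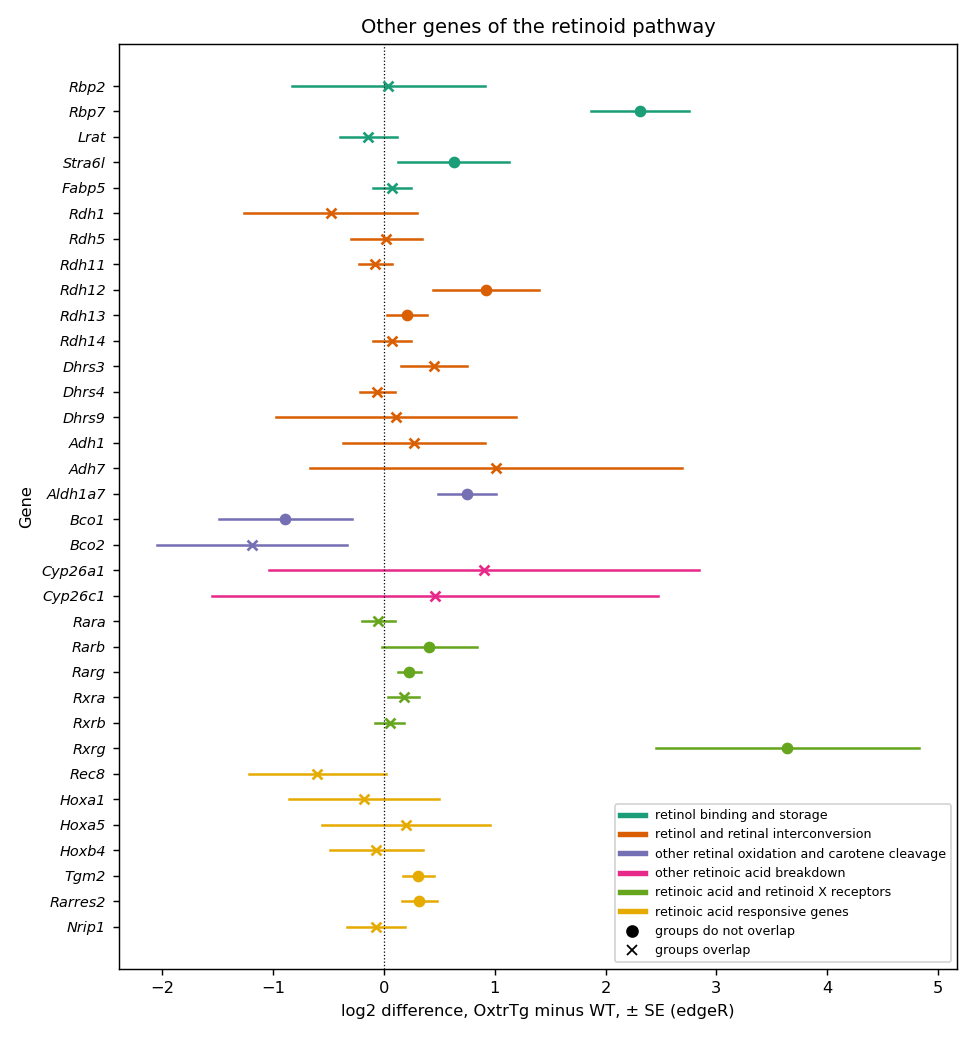
The edgeR log2 difference (OxtrTg minus WT) of tested pathway genes, with lines of 1 SE, coloured by role; filled circles mark genes whose groups do not overlap. Rbp7 and Rxrg lie farthest to the right, but Rxrg passed the filter through OxtrTg alone and so had to differ. The lines of Cyp26a1, Cyp26c1 and Adh7 are among the longest.

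The libraries contributed unevenly to these patterns. In scaled CPM, WT replicate 6 was the highest library for 3 of the 9 genes (Aldh1a1, Aldh1a2 and Stra6) and the lowest for 4 (Rdh10, Rbp4, Crabp1 and Crabp2). Of all tested genes it was the highest for 25.5% and the lowest for 25.6%. OxtrTg replicate 4 was the highest for 2 of the 9 (25.3% of all tested genes) and the lowest for 3 (25.4%), OxtrTg replicate 3 the highest for 3 (29%) and the lowest for 0 (29.1%), and WT replicate 5 the highest for 1 (20.2%) and the lowest for 2 (19.9%). Rdh10 in WT replicate 6 lay only just under OxtrTg replicate 3, at 28.4 and 28.5 CPM. Stra6 in WT replicate 6 lay only just above OxtrTg replicate 3, at 39.6 and 38.9 CPM. In FPKM that order was reversed, at 6.72 and 6.76.

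**Figure D5:**
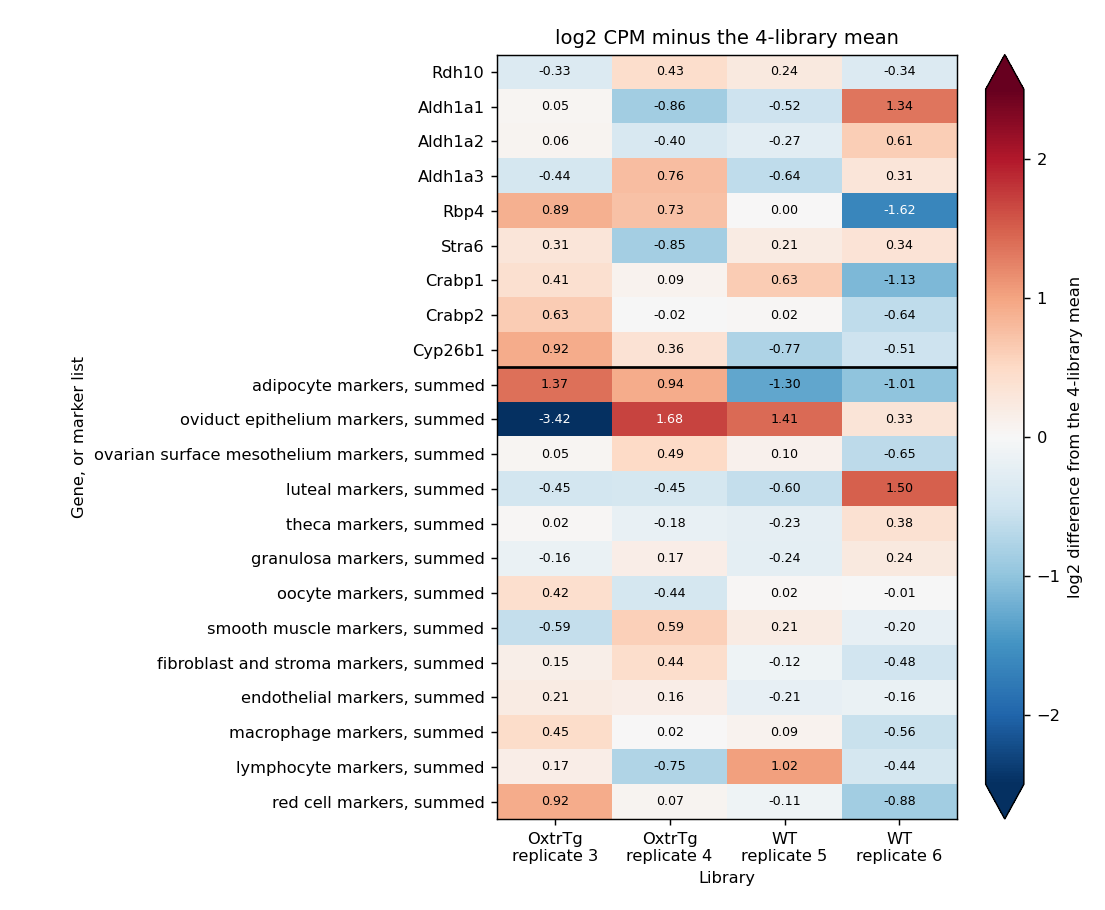
The log2 CPM of each retinoid gene (top) and of the summed markers of each cell type (bottom) in each library, minus the mean over the 4 libraries. Aldh1a1 and the luteal markers are both far above their mean in WT replicate 6 (1.34 and 1.5), and Cyp26b1 and the adipocyte markers are above it in both OxtrTg libraries and below it in both WT libraries.

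For the 8 genes whose level spanned at least 1 on the log2 CPM scale, the most alike profiles over the 4 libraries were found by the root mean square difference of centred log2 CPM. Aldh1a1 was nearest to Bco2 (0.0717), then Slc12a8 (0.110) and Zfp786 (0.130). Cyp26b1 was nearest to G0s2 (0.0442), Cd36 (0.0648) and Mmp28 (0.0768). G0s2 stood at 32.8 and 23.4 CPM in OxtrTg and 9.99 and 11.8 CPM in WT, and Cd36 at 236 and 161 against 71.9 and 79.1 CPM. Rbp4 was nearest to Abcc6 (0.0671), Tph2 (0.0827) and Alas2 (0.107), of which Alas2 is on the red cell list. Abcc6 and Tph2 were at 0.314 and 0.126 CPM in WT replicate 6, where 3 counts are 0.188 CPM. Counting error is large at such levels, and Bco2 was thinly counted too, as given above. Aldh1a2 was nearest to Cox4i2, Nkapl and Hadhb, Aldh1a3 to Chtf8, Elovl4 and Klk1, and Stra6 to Tm6sf2, P2rx1 and Gm4951. Crabp1 was nearest to Cd209c, Nlgn1 and Il21r, and Crabp2 to Apoc3, Wnt9a and Zfp750. With 4 libraries such likeness is common: 10 to 259 tested genes lay within 0.2 of each of the 8 genes.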

How the data were processed

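The authors' deposited table gives a read count and an FPKM per gene and library, per the file headers. From the values, the deposited FPKM equals the count over the table's gene length and the library total. Total RNA went into NEBNext Ultra II libraries, per the labels' protocols, and the submitters' processing notes name mm10; aligner, counting program, strand setting and annotation are not stated. All 9 genes had the same chromosome in GENCODE M21 (GRCm38) and 0 of 9 the same start and end. Promoter windows are from RefSeq (GRCm38.p6), where 6 of 9 genes matched by symbol.

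Counts were tested with edgeR 4.0.16 in R 4.3.3 (quasi-likelihood, TMM, filterByExpr with a minimum count of 10), OxtrTg against WT, with 2 residual degrees of freedom, a common dispersion of 0.104, and Benjamini-Hochberg adjustment over all 15311 genes. Groups and replicate numbers come from the titles. No label says that replicates are separate animals, so p-values measure the spread between 2 libraries a group, which can be technical. Intervals from counts and limits of 3 counts cover counting error only. Alternatives were DESeq2 1.42.0, limma-voom (limma 3.58.1), other scalings and filters, log2(FPKM + 1) or log2(FPKM + 0.1) in limma, and each library left out; leaving libraries out in DESeq2 was added after the data were seen. The code was tested on simulated data. The members and lists were chosen with earlier results of these data known. Besides the 9, the text names of each pathway list the genes called by edgeR or DESeq2 and the 2 with the highest mean FPKM (all genes of lists of up to 4, and all 6 receptors), the 2 most abundant markers of each list printed, and the 3 genes most alike to each of the 9. A pathway gene that this rule names is not reported here, though the counts over its list include it. Likeness was computed on log2 CPM (prior count 2). Reading frames were the longest of each gene's GENCODE transcripts, compared with Biopython 1.88.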

Additional observations from a re-analysis of the deposited data

How the results depend on the processing

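Under the 10 alternatives to the test, scaling, filter and pseudocount, each of the 9 log2 differences kept its direction, and none of the 9 genes was called (90 of 90 values). Leaving out libraries did more. For Rbp4 and Cyp26b1 the groups did not overlap, so leaving out 1 library could not turn the direction. Rbp4 (0.81 to 2.43), Crabp2 (0.25 to 0.97) and Cyp26b1 (0.99 to 1.55) kept their direction in 4 of 4 edgeR fits. The other 6 did not, with ranges of -0.31 (without OxtrTg replicate 4; -0.14 without WT replicate 6) to 0.45 for Rdh10, -1.68 to 0.18 for Aldh1a1 (-1.69 to 0.18 in DESeq2), -0.77 to 0.12 for Aldh1a2 (up to 0.11 in DESeq2), -0.35 (-0.03 without WT replicate 5, -0.0342 in DESeq2) to 0.92 for Aldh1a3, -1.13 to 0.0328 for Stra6 (0.0321 in DESeq2) and -0.37 to 1.38 for Crabp1. Aldh1a1, Aldh1a2 and Crabp1 turned without WT replicate 6, Stra6 without OxtrTg replicate 4, Rdh10 without either of these, and Aldh1a3 without OxtrTg replicate 4 or WT replicate 5; the cause was not tested.

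Over all genes, edgeR called 0 higher and 0 lower, DESeq2 66 and 3. Without 1 library edgeR called 0 to 7 higher and 0 to 58 lower, the most without OxtrTg replicate 4, and DESeq2 47 and 8 (without OxtrTg replicate 3), 57 and 421 (OxtrTg replicate 4), 82 and 77 (WT replicate 5) or 44 and 2 (WT replicate 6). Of the 9 genes DESeq2 then called 0 or 1 in each direction, namely Rbp4 higher and Aldh1a1 lower without WT replicate 5. With 1 library in a group, that library is assumed to vary like the other group. An adjusted p under 0.1 called 0 genes in edgeR. No paired analysis was possible because the groups share no replicate number. Depth limits Crabp1 and the thinly counted pathway genes.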
